A study of Mus musculus with 4 samples.

Results

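The genes described here are the mouse hemoglobin genes and a pair of red cell genes, Alas2 and Slc4a1. They were chosen by name: 9 symbols were looked up in a table of read counts per gene, and 8 of them were found among its 13289 genes. The embryonic beta globin Hbb-bh1 was not analysed here. The counts come from bulk RNA-seq of polyadenylated RNA from the cerebral cortex of mouse embryos at embryonic day 15 (E15), with 2 control libraries, titled WT, and 2 Lhx2 cKO libraries. The labels call the WT libraries controls. The abbreviation cKO usually stands for conditional knockout, here of Lhx2, a LIM-homeodomain transcription factor of cortical progenitors. The Cre driver, the Lhx2 allele, the strain, the sex, the litter and any pooling of embryos are not given in the labels. The labels describe the brain as fresh and do not mention perfusion.

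Hemoglobin carries oxygen as a tetramer of a pair of alpha-type and a pair of beta-type chains, each holding a heme group. The chains are encoded in separate clusters, and each cluster holds embryonic genes, used mainly by the primitive red cells that form first in the yolk sac, and adult genes, used by the definitive red cells that later come from the fetal liver. Globin messenger RNA in brain tissue comes largely from red cells inside its vessels. Because these are bulk samples, fewer cells of a type and less RNA per cell cannot be told apart for any value below.

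In the alpha cluster on chromosome 11, Hba-x encodes the embryonic zeta-type chain, and Hba-a1 and Hba-a2 encode the adult alpha chain. In the beta cluster on chromosome 7, Hbb-y encodes an embryonic epsilon-type chain, and Hbb-bs and Hbb-bt encode the adult beta chains. Alas2, on the X chromosome, encodes the red cell form of 5-aminolevulinate synthase, the enzyme that starts heme synthesis. Slc4a1, on chromosome 11, encodes band 3, the anion exchanger of the red cell membrane.

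How far reads can separate these genes was read from the coding sequences of the GENCODE M21 annotation (GRCm38), a different build from the mm39 that the submitters name. Over 429 coding bases Hba-a1 and Hba-a2 differed at 1 base, C381T, and over 444 coding bases Hbb-bs and Hbb-bt differed at 1 base, C417T. Positions count from 1 at the first base of the start codon, and the first gene's base is written first. Embryonic and adult genes were far apart: Hbb-y and Hbb-bs differed at 114 bases (74.3% identity) with no identical stretch over 22 bases, and Hba-x and Hba-a1 at 163 bases (62.0% identity) with none over 18 bases. The ends of the coding sequences are shown because they hold the only coding base that parts each adult pair. For the beta genes these are coding bases 361 to 444, with capitals where a gene differs from Hbb-bs.
Hbb-bs: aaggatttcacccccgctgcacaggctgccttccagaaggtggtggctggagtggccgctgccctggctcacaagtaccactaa
Hbb-bt: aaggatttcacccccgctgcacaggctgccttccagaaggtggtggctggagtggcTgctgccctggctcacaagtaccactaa
Hbb-y: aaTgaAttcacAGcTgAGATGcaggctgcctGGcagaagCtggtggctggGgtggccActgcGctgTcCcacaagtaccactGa

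For the alpha genes the matching stretch is coding bases 346 to 429, with capitals where a gene differs from Hba-a1.
Hba-a1: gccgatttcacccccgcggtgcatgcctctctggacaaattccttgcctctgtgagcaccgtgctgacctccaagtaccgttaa
Hba-a2: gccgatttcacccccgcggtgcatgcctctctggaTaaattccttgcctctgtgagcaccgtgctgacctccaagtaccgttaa
Hba-x: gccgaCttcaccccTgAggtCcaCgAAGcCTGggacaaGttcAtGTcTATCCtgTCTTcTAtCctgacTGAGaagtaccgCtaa

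A read inside the coding part therefore rarely tells Hbb-bs from Hbb-bt or Hba-a1 from Hba-a2. How the authors' counting treated reads that fit both genes is not given in the sources used here, so the values of the 4 adult genes taken singly are uncertain. Sums over a pair do not depend on how such reads were split, but would miss them if they were not counted, and the share of embryonic genes would then be too high in every library.

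Total counts ranged from 22294237 to 24609627 per library over the genes analysed, and levels are given as CPM, counts scaled to a common library total. The 8 genes together took 0.187% to 0.315% of the counts. Lhx2 itself was at 311 and 293 CPM in control and at 244 and 241 CPM in Lhx2 cKO, lower in both. Its mean in Lhx2 cKO was still 80.2% of the control mean (log2 fold change -0.31 ± 0.0976 SE, adjusted p 0.0191 by edgeR). The 9 cortical genes used to check the tissue, among them Emx1 and Tbr1, were all present, with summed levels of 3952 and 3996 CPM in control and 3427 and 3252 CPM in Lhx2 cKO. Of these 9, 5 were lower at an adjusted p under 0.05 by edgeR, against 9.17% of all genes, and 0 higher, against 11.6%. Their median log2 fold change was -0.31, the value of Lhx2 too, with Emx1 at -1.54. Their part in the Lhx2 and globin values was not tested. Control 1 stood above control 2 for 8 of the 8 red cell genes, by 1.22 to 1.53 times. The median of this ratio over all genes tested was 0.963, and 8.59% of genes reached 1.22. Lhx2 cKO 1 also stood above Lhx2 cKO 2 for each of the 8, with Hba-a2 at 334 against 312 CPM and Slc4a1 at 6.28 against 3.94 CPM. The share of all genes with that order in Lhx2 cKO was not computed, and its cause was not tested.

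In Lhx2 cKO the adult globins and Alas2 were lower and the embryonic beta globin Hbb-y was higher. With edgeR's quasi-likelihood test and an adjusted p under 0.05 as a call, 5 of the 8 genes were called lower (Hba-a1, Hba-a2, Hbb-bs, Hbb-bt and Alas2), against 9.17% of the 13288 genes tested. Hbb-y was the 1 gene called higher, against 11.6% of all genes. Hba-x and Slc4a1 were not called. The groups did not overlap for the 6 called genes, while non-overlap on the lower side held for 28.6% of all genes and on the higher side for 28.9%.

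The level of each gene per kilobase of its deposited length put the members in the same order in 4 of 4 libraries: Hbb-bs, Hba-a1, Hba-a2, Hbb-bt, Hbb-y, Hba-x, Alas2, Slc4a1. In control the means were 1240 ± 216 CPM per kilobase for Hbb-bs and 1115 ± 218 for Hba-a1 (SD, n = 2). Those of Hba-a2 and Hbb-bt were 650 ± 143 and 587 ± 102 CPM per kilobase. In each pair the means differed by less than the SDs, which include the shift between control 1 and control 2. Inside control 1 and control 2, Hbb-bs was above Hba-a1, at 1392.6 against 1269.3 and 1087.5 against 961.0. Hba-a2 was above Hbb-bt, at 750.7 against 659.1 and 549.3 against 515.4. Below them Hbb-y stood at 54.5 ± 7.50, Hba-x at 19.7 ± 4.55, Alas2 at 7.62 ± 2.26 and Slc4a1 at 1.36 ± 0.236 CPM per kilobase. In Lhx2 cKO, Hba-a2 at 484 ± 24.0 and Hbb-bt at 291 ± 48.6 CPM per kilobase were separated by more than their spread.

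**Figure D1:**
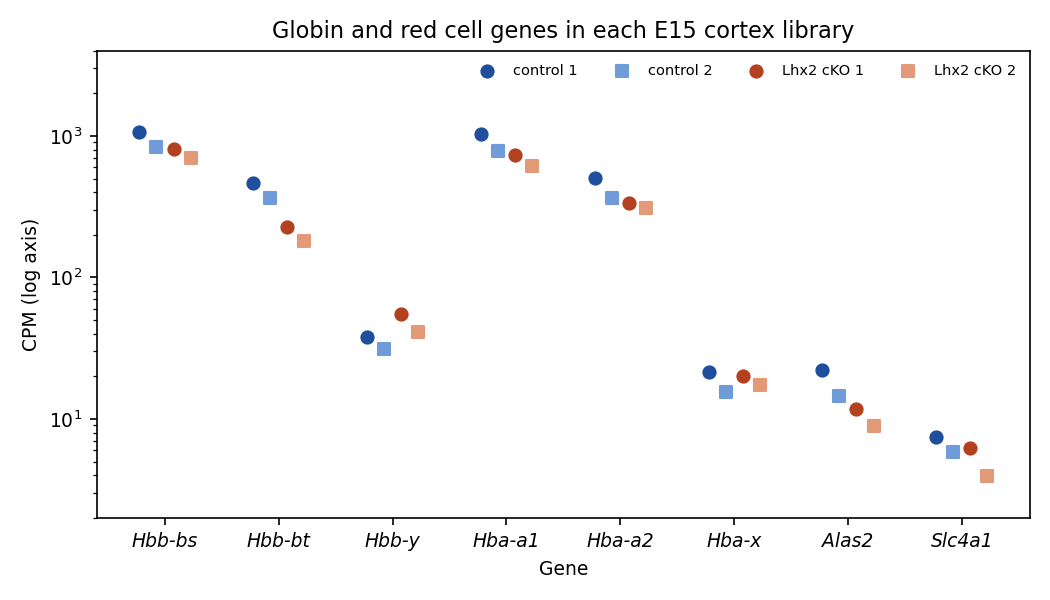
CPM of the 8 genes (log axis), with 1 point per library; circles are replicate 1, squares replicate 2, blue control and red Lhx2 cKO. The adult globins and Alas2 are lower in both Lhx2 cKO libraries than in both control libraries, Hbb-y is higher, and Hba-x and Slc4a1 overlap.

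Among adult alpha globins, Hba-a1 (ENSMUSG00000069919.8) was at 1031 and 780 CPM in control 1 and 2 and at 729 and 608 CPM in Lhx2 cKO 1 and 2. Both Lhx2 cKO libraries were below both controls, but Lhx2 cKO 1 and control 2 were closer to each other than the controls were. Its log2 fold change was -0.43 ± 0.12 (SE; edgeR adjusted p 0.00705). Hba-a2 (ENSMUSG00000069917.8) was at 501 and 366 CPM in control and 334 and 312 CPM in Lhx2 cKO, again without overlap. It fell by nearly the same amount, at -0.42 ± 0.114 (SE; adjusted p 0.00603).

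Among adult beta globins the fitted change was larger for Hbb-bt than for Hbb-bs, a difference that was not itself tested. Hbb-bs (ENSMUSG00000052305.7) was at 1070 and 835 CPM in control and 813 and 698 CPM in Lhx2 cKO, with a narrow gap between control 2 and Lhx2 cKO 1. Its log2 fold change was -0.33 ± 0.118 (SE; edgeR adjusted p 0.0408). Hbb-bt (ENSMUSG00000073940.4) was at 463 and 362 CPM in control and 228 and 180 CPM in Lhx2 cKO, with a wide gap between the groups. It fell to 49.5% of the control mean, or -1.01 ± 0.113 on the log2 scale (SE; adjusted p 3.55e-09).

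These calls leaned on control 1 to different degrees. Without control 1 the log2 fold change was -0.20 for Hba-a1 (adjusted p 0.392), -0.16 for Hba-a2 (0.471) and -0.12 for Hbb-bs (0.655), and Hbb-bt was the 1 member still called lower, at -0.81 (1.47e-09), against 5.98% of all genes, and Hbb-y stayed called higher, against 7.49%. Without Lhx2 cKO 2, Hba-a1 (adjusted p 0.068) and Hbb-bs (0.218) also lost their calls, while 5.78% of all genes were called lower and 6.51% higher. Without control 2 the share called was 8.12% lower and 9.62% higher, and without Lhx2 cKO 1 it was 7.53% lower and 10.5% higher, with the same 5 members called lower in each. DESeq2 called 3 members lower (Hbb-bs, Hbb-bt and Alas2), against 7.34% of all genes, called Hbb-y higher, against 8.99%, and gave adjusted p of 0.233 for Hba-a1 and 0.265 for Hba-a2.

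Embryonic globins did not follow the adult ones. Hbb-y (ENSMUSG00000052187.5) was at 37.8 and 31.1 CPM in control and at 55.6 and 41.2 CPM in Lhx2 cKO, higher in both. Its log2 fold change was 0.49 ± 0.117 (SE; edgeR adjusted p 0.00174). The call was lost without control 2 (0.33, adjusted p 0.0581) and without Lhx2 cKO 1 (0.30, adjusted p 0.106). Hba-x (ENSMUSG00000055609.9) was at 21.5 and 15.4 CPM in control and at 20.1 and 17.2 CPM in Lhx2 cKO. Its groups overlapped, and the log2 fold change of 0.02 ± 0.148 (SE; adjusted p 0.945) changed sign when libraries were left out, from -0.22 without control 2 to 0.30 without control 1.

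Embryonic and adult genes were next compared inside each library, which does not depend on how much globin RNA the library holds in all. Of the beta globin counts, Hbb-y took 2.41% (95% Wilson interval 2.26% to 2.57%) in control 1 and 2.53% (2.36% to 2.72%) in control 2. It took 5.06% (4.80% to 5.35%) in Lhx2 cKO 1 and 4.48% (4.22% to 4.77%) in Lhx2 cKO 2. The controls agreed within counting error, and both Lhx2 cKO libraries stood well above them. The Lhx2 cKO libraries differed from each other by more than counting error, as their intervals did not meet. As a log2 ratio of embryonic to adult beta counts the means were -5.30 (SD 0.0526) in control and -4.32 (SD 0.13) in Lhx2 cKO (n = 2 each), a difference of 0.98, or 1.98-fold.

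The alpha cluster went the same way by a smaller amount. Hba-x took 1.38% (1.27% to 1.5%) and 1.33% (1.20% to 1.47%) of alpha globin counts in control 1 and 2, and 1.85% (1.69% to 2.03%) and 1.84% (1.67% to 2.03%) in Lhx2 cKO 1 and 2. The intervals of the groups did not meet. The log2 ratio was -6.19 (SD 0.042) in control and -5.73 (SD 0.00706) in Lhx2 cKO (n = 2 each), a difference of 0.45, or 1.37-fold. No p is given for these ratios over chosen genes, and 2 libraries against 2 could not take an exact two-sided permutation test below 0.333. The intervals account for counting error alone, and nothing in the labels mentions molecular identifiers.

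**Figure D2:**
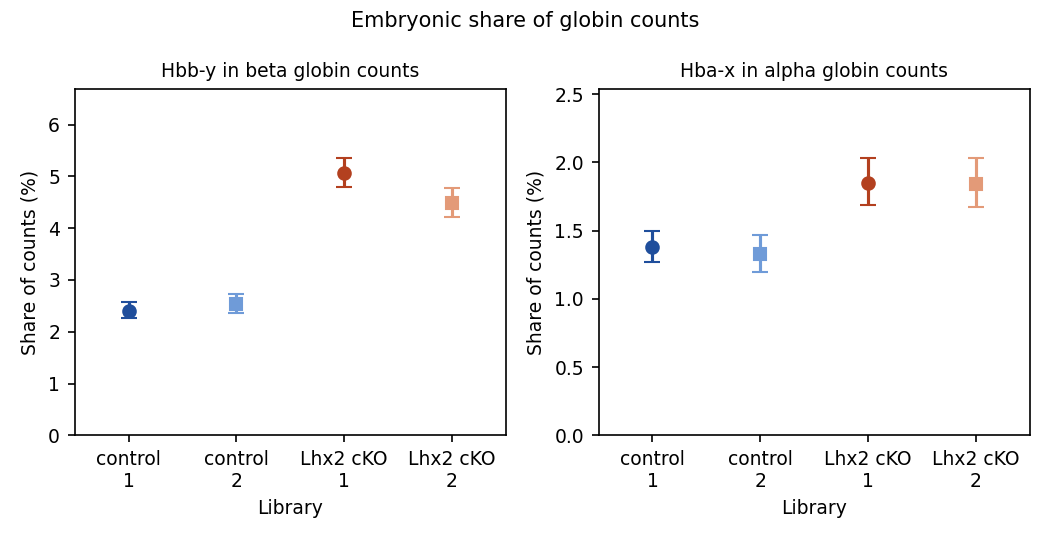
Share of beta globin counts from Hbb-y (left) and of alpha globin counts from Hba-x (right), in percent, in each library; bars are 95% Wilson intervals and cover counting error only. The control libraries sit at 2.41% and 2.53% for Hbb-y against 5.06% and 4.48% in Lhx2 cKO, and at 1.38% and 1.33% against 1.85% and 1.84% for Hba-x.

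The ratios were steadier between replicates than the levels they were made of. Summed adult globins were at 3064 and 2344 CPM in control and 2104 and 1798 CPM in Lhx2 cKO, so control 1 exceeded control 2 by 0.39 on the log2 scale. The log2 embryonic to adult ratio of both clusters together was -5.69 and -5.65 in the controls against -4.80 and -4.94 in Lhx2 cKO. The difference between the groups was 0.80, and it lay between 0.73 and 0.875 when any 1 library was left out. Summed embryonic globins were at 59.3 and 46.5 CPM in control and 75.6 and 58.4 CPM in Lhx2 cKO, and here Lhx2 cKO 2 lay within the control range.

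Within the adult beta pair, Hbb-bt took 30.2% (29.8% to 30.7%) and 30.3% (29.7% to 30.8%) of counts in control 1 and 2, and 21.9% (21.4% to 22.5%) and 20.5% (20% to 21.1%) in Lhx2 cKO 1 and 2. The controls were alike to within counting error despite their different levels, and both Lhx2 cKO libraries were lower by far more. Between the Lhx2 cKO libraries the intervals did not meet. The log2 ratio of Hbb-bt to Hbb-bs was lower by 0.69 in Lhx2 cKO, against an SD of 0.00147 in control and 0.0861 in Lhx2 cKO. The adult alpha pair, equally close in sequence, showed no such shift: Hba-a2 took 32.7% and 31.9% in the controls against 31.4% and 33.9% in Lhx2 cKO, with overlapping groups. Because a pair differs at 1 coding base, the Hbb-bt share rests on how shared reads were assigned and on bases outside the coding part, and that was not tested. Laboratory strains also carry different Hbb haplotypes, and the labels give no strain for either group. A difference in haplotype between the groups was not tested for the Hbb-bt share or level. Nor was it tested for the Hbb-y share of beta globin counts, whose total includes Hbb-bt.

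Hbb-y was also set against Hbb-bs alone, whose level depends on the same assignment of shared reads as that of Hbb-bt. The log2 ratio of Hbb-y to Hbb-bs was -4.82 and -4.75 in the controls against -3.87 and -4.08 in Lhx2 cKO, a difference of 0.81, without overlap. Alpha and beta genes had nearly equal summed counts. Alpha genes took 49.7% (49.4% to 50.1%) and 48.6% (48.2% to 49.0%) of all globin counts in control and 49.7% (49.2% to 50.1%) and 50.5% (50% to 51.0%) in Lhx2 cKO, with control 1 and Lhx2 cKO 1 at the same value. Among embryonic counts, Hba-x took 36.2% and 33.1% in the controls against 26.5% and 29.5% in Lhx2 cKO, without overlap.

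**Figure D3:**
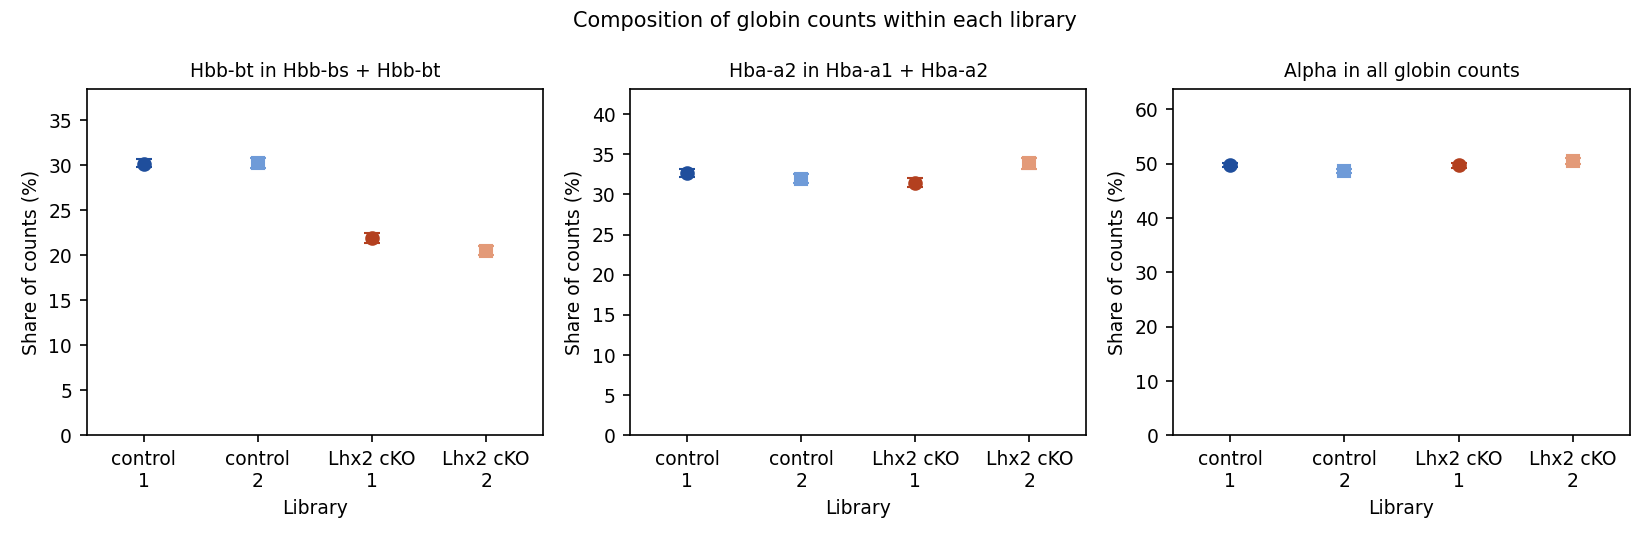
Shares of counts in percent within each library: Hbb-bt in the adult beta pair (left), Hba-a2 in the adult alpha pair (middle) and alpha genes in all globin counts (right); bars are 95% Wilson intervals and cover counting error only. Hbb-bt sits at 30.2% and 30.3% in control and at 21.9% and 20.5% in Lhx2 cKO, while the groups overlap in the other panels.

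Alas2 (ENSMUSG00000025270.14) was at 22.2 and 14.5 CPM in control and 11.8 and 8.89 CPM in Lhx2 cKO. The groups did not overlap, and the log2 fold change was -0.82 ± 0.173 (SE; edgeR adjusted p 4.42e-04). Without control 1 it was -0.46 and no longer called (adjusted p 0.121). In GENCODE M21 an exon of Alas2 overlaps an exon of Apex2 on the other strand, and without a stated strand setting their reads cannot be told apart there. Apex2, a DNA repair gene, was at 23.4 and 19.3 CPM in control and 16.1 and 17.0 CPM in Lhx2 cKO (log2 fold change -0.36, adjusted p 0.0622). Relative to the summed adult globins the log2 ratio of Alas2 was -7.11 and -7.34 in the controls against -7.47 and -7.66 in Lhx2 cKO, a difference of -0.34 against a pooled SD of 0.147.

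Slc4a1 (ENSMUSG00000006574.16) had few reads, at 7.48 and 5.85 CPM in control and 6.28 and 3.94 CPM in Lhx2 cKO. The groups overlapped, and its log2 fold change of -0.38 (SE 0.233) did not pass the test (adjusted p 0.262 by edgeR). Its log2 ratio to the summed adult globins differed by 0.05 between groups, within a pooled SD of 0.223. At this depth a change of Slc4a1 as large as that of the adult alpha globins could not be told from no change.

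**Figure D4:**
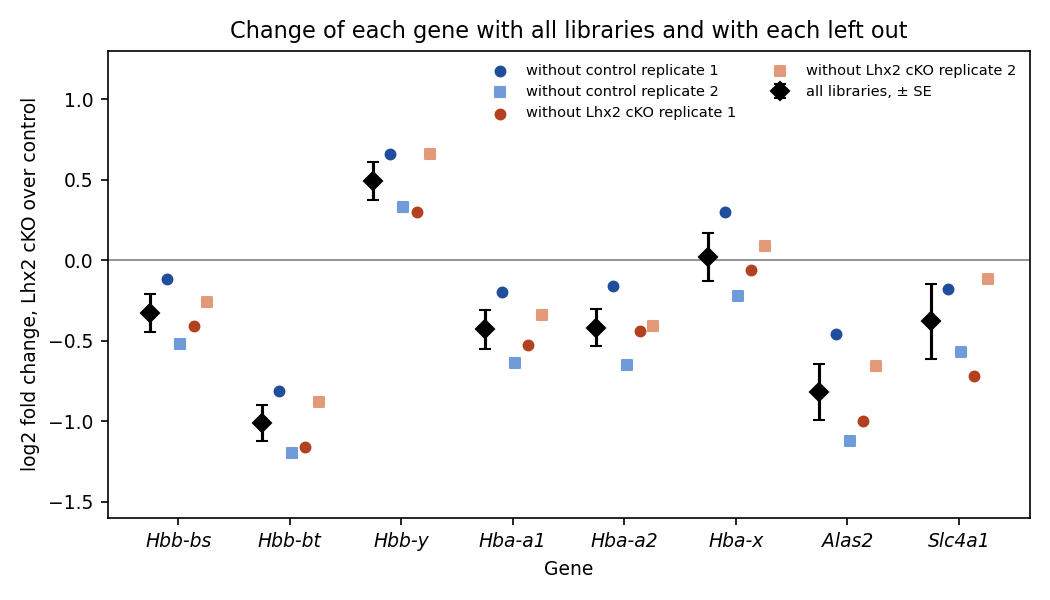
Log2 fold change of Lhx2 cKO over control for the 8 genes with all libraries (black, bars are SE) and with each library left out (coloured points). Without control 1 the adult globins and Alas2 all come closer to 0, with Hbb-bt at -0.81, Alas2 at -0.46 and the other adult globins between -0.20 and -0.12.

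No other enzyme of heme synthesis passed the test. The 9 enzymes include Alas1, the form of the first enzyme used by all cells, and Fech, which inserts iron at the last step. Alas2 was called lower, the other 8 were not called, and none was called higher by edgeR. The 1 of 9 called lower is close to the 9.17% of all genes. At an unadjusted p under 0.05, 2 were lower, against 14.8% of all genes, and 0 higher, against 17.3%. DESeq2 called 1 lower, against 7.34%, and 0 higher. The 8 others had log2 fold changes from -0.29 (Fech) to 0.17 (Alad), with adjusted p from 0.145 to 0.686 in edgeR. Alas1 was at 30.03 and 33.1 CPM in control and 27.8 and 29.1 CPM in Lhx2 cKO. The median over the 9 was -0.14, against 0.003 over all genes tested.

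Among 16 genes of heme and iron handling, 2 were called higher and 0 lower by edgeR, a share close to the 11.6% of all genes called higher. At an unadjusted p under 0.05, 6 were higher, against 17.3% of all genes, and 1 lower, against 14.8%. DESeq2 called 3 higher, against 8.99%, and 0 lower. Their median log2 fold change was 0.11. Slc40a1, the iron exporter ferroportin, rose from 8.09 and 10.96 CPM in control to 16.4 and 17.1 CPM in Lhx2 cKO (log2 fold change 0.83, adjusted p 1.58e-04 by edgeR). Slc48a1, a heme transporter of endosomes, rose from 47.9 and 47.7 to 60.1 and 64.2 CPM (0.39, adjusted p 0.00416). The mitochondrial iron importer Slc25a37, which red cell precursors use heavily and which was picked after its values were seen, was at 13.0 and 11.4 CPM in control and 10.6 and 6.90 CPM in Lhx2 cKO (-0.48, adjusted p 0.0543). With 1 library left out in turn the median lay between 0.093 and 0.193, and the number called depended on which library was left out.

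Of 16 red cell membrane and skeleton genes, 9 were analysed, 3 of them called lower, against 9.17% of all genes, and 2 higher, against 11.6%, with a median log2 fold change of 0.09. Sptb, erythroid beta spectrin, was called lower (-0.96, adjusted p 0.00134 by edgeR), but its control libraries had 16.1 and 7.73 CPM against 5.97 and 6.27 CPM for Lhx2 cKO, and without control 1 the log2 fold change was -0.31 (adjusted p 0.495). Ank1 (-0.34) and Epb41 (-0.30), skeleton genes that neurons also use, were called lower, and Cd47 (0.35), a broadly used surface protein, and Gypc (0.83), a glycophorin picked by name after its values were seen, were called higher. No gene of this list was called lower without control 1, and none higher without Lhx2 cKO 2. Of the defining red cell genes, Rhag and Epb42 were among those not analysed here. Of 13 red cell enzymes and chaperones, 6 were analysed. EdgeR called 0 of them, against 9.17% of all genes lower and 11.6% higher, and DESeq2 called 0, against 7.34% and 8.99%. At an unadjusted p under 0.05 in edgeR there were 0, against 14.8% lower and 17.3% higher. Of 7 other globin genes 1 was analysed, Cygb, the cytoglobin of many tissues, with a log2 fold change of -0.07 that was not called.

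Of 14 red cell transcription factors and globin regulators, 11 were analysed, 6 of them called lower, against 9.17% of all genes, and 1 higher, against 11.6%. Their median log2 fold change was -0.34, and the values ran from -0.90 (Zfpm1) to 0.47 (Nr2c1). Bcl11a, known as a repressor of embryonic and fetal globin genes in red cells and also strongly expressed by cortical neurons, fell from 507.0 and 507.2 CPM in control to 324 and 308 CPM in Lhx2 cKO (-0.67, adjusted p 1.99e-06 by edgeR). Sox6, which acts with it in red cells and is used by cortical progenitors and interneurons, was at -0.65 (adjusted p 1.41e-05), and Zbtb7a, another globin repressor, was at -0.49 (4.31e-04). Zfpm1, the partner of GATA1, was at -0.90 (adjusted p 0.00193), and at -0.40 (0.362) without control 1; its controls had 13.5 and 7.57 CPM. Tal1 and Nfe2, factors of the red cell and megakaryocyte lines picked after their values were seen, were at 1.14 to 2.21 CPM with overlapping groups. Gata1 and Klf1 were not analysed here. Without control 1, 3 of the list were called lower, against 5.98% of all genes. In which cells these regulators changed was not tested.

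Endothelial and microglia genes were mostly called higher, while the single platelet and megakaryocyte gene analysed was called lower. Of 10 endothelial genes, 7 were called higher, against 11.6% of all genes, and 0 lower, with summed levels of 198 and 244 CPM in control and 303 and 334 CPM in Lhx2 cKO and a median log2 fold change of 0.49. All 10 lay higher in both Lhx2 cKO libraries than in both controls, against 28.9% of all genes, but 2 were called higher without control 1, against 7.49%, and 3 without Lhx2 cKO 2, against 6.51%. Of 10 microglia and macrophage genes, 9 were called higher, against the same 11.6%, and 0 lower, with summed levels of 116 and 122 CPM in control and 245 and 258 CPM in Lhx2 cKO. The summed endothelial level was lower in replicate 1 than in replicate 2 of each group, whereas each of the 8 red cell genes was higher there. Of the platelet and megakaryocyte genes 1 of 7 was analysed, Itga2b (-0.73, adjusted p 0.00531 by edgeR), and the 7 neutrophil genes were not analysed here. The part of these cells in the globin values was not tested.

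The letters just upstream of the globin genes are shown because the adult genes fell together while Hbb-y rose. RefSeq windows (GRCm38.p6) of 250 bases before the annotated start were matched for 7 of the 8 genes by symbol. They were searched on both strands for CACCC, the box bound by KLF factors, and for CCAAT. They were also searched for GATAA, the core of GATA factor sites, and for TATAA, the TATA box; none of these motifs contains another. The 30 bases around the CCAAT box on the gene's strand nearest to the start are given with matches in capitals. In Hbb-bt the CCAAT box follows a match on the other strand.
Hbb-bs: gagccaCACCCtggtaagggCCAATctgct
Hbb-bt: gggtaaCACCCtggcATTGGCCAATctgct
Hbb-y: aggaccacgggtcaggctgaCCAATagctt
Hba-a1: gtagagcaagcacaaaccagCCAATgagaa
Hba-a2: gtagagcaagcacaaaccagCCAATgagaa

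These stretches lie at chr7:103827995-103828024 for Hbb-bs, chr7:103813989-103814018 for Hbb-bt and chr7:103853281-103853310 for Hbb-y, all on the minus strand. They lie at chr11:32283564-32283593 for Hba-a1 and chr11:32296381-32296410 for Hba-a2, on the plus strand. Hba-a1 and Hba-a2 share the same letters here. GATAA and CACCC were found in 7 of the 7 windows, against 22.6% and 52.0% of all 32851 windows. CCAAT was found in 5, all but Hba-x and Alas2, against 33.8%. TATAA was found in all but Hbb-y, against 22.8%. These matches are letters in a window and were not read as binding sites.

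By a distance between log2 CPM profiles centred over the 4 libraries, the genes most like the summed adult globins were Numa1, Pym1, Kpna2, Rcc1 and Zfp108, at root mean square distances of 0.0284 to 0.0414 log2 units among 12451 genes. Among those most like the summed embryonic globins were Rasip1, Slc26a11, Pik3cb and Sh3tc1, at 0.00508 to 0.0375. These are distances over 4 libraries, and nothing is read from them beyond the match in profile. Slc4a1 ranked 797 and Alas2 ranked 1801 in likeness to the adult globins.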

How the data were processed

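Raw counts per gene were deposited by the authors as 1 column per library. Per the submitters' processing notes the build was mm39 and Trim Galore, Subread, featureCounts and edgeR were used; the annotation and use of strand are not given in the sources used here. The lowest row total was 102 counts. The gene length, log2 fold change, log2 mean CPM, p-value, adjusted p-value and -log10 columns were deposited by the authors too, and of these the length enters the levels per kilobase. The authors' deposited table gives 6 members an adjusted p under 0.05, of which its own change label marks 2 (Hbb-bt and Alas2) as down and 4 as NS.

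Libraries were grouped by title. Counts were tested with edgeR 4.0.16 in R 4.3.3 (TMM, filterByExpr with a minimum count of 10, glmQLFit and glmQLFTest, two-sided, Benjamini-Hochberg over 13288 genes). SE is the absolute log2 fold change over the root of F. DESeq2 1.42.0, limma-voom (limma 3.58.1), other scalings and filters, the replicate block and leaving out each library were alternatives. P-values measure the spread between these libraries only, since nothing says that they came from separate embryos. At this depth the floor of 3 counts is 0.122 to 0.135 CPM. The rule for named genes took the members, the heme enzymes, at most 4 called genes from each other list (lowest p first), the 5 genes nearest in profile to each globin sum (mean CPM 2 or more) and Lhx2. The members and lists were chosen with earlier results of these data known. Some genes that the rule would name are not reported here.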

Additional observations from a re-analysis of the deposited data

How the results depend on the processing

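Of 740 alternative values, 662 were classed as the same, 30 lost a call, 41 moved and 7 changed sign. A count of called genes was classed as the same within 1.5 times the main count, so the 662 include counts that changed. Where no value shows it, the cause was not tested. Members called lower numbered 5, and 3 with DESeq2; with a mean count of at least 50, Hbb-bs was at an adjusted p of 0.0527. The beta embryonic to adult difference of 0.98 was 1.151 as a mean of log2 CPM over genes. With DESeq2, membrane genes called numbered 1 lower and 1 higher, and regulators called higher 0. With a mean count of at least 50, the medians were -0.097 for membrane genes, a change of sign, and -0.486 for regulators. Iron handling genes called lower numbered 1 with upper-quartile factors, library totals alone, limma-voom or the replicate block, and 4 were called higher with the block.

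Leaving out 1 library in turn gave these ranges, with the lone library of a group assumed to vary like the other group. Members called lower ranged from 1 to 5 and higher from 0 to 1; heme enzymes called lower from 0 to 1. Iron handling genes called lower ranged from 0 to 2 and higher from 1 to 4, with medians of 0.093 to 0.193. Membrane genes called lower ranged from 0 to 3 and higher from 0 to 2, with medians of 0.039 to 0.14. Regulators called lower ranged from 3 to 6 and higher from 0 to 1, with medians of -0.499 to -0.307. Endothelial genes called higher ranged from 2 to 8, with medians of 0.351 to 0.69. The median of red cell enzymes ranged from -0.058 to 0.036, Hba-x from -0.22 to 0.3 (-0.06 without Lhx2 cKO 1) and the Hba-a2 to Hba-a1 ratio difference from -0.059 to 0.1 (-0.004 without control 2).

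Over all genes tested, the differences between replicate 1 and replicate 2 were not correlated between the groups (0.000642). That value covers all genes and cannot decide on pairing for the red cell genes. Each of the 8 members was higher in replicate 1 in both groups. With the replicate block Hbb-bt was at -1.0 and no member's call changed. Leave-one-out calls and DESeq2 for the lists were chosen after seeing the data. With 2 libraries per group, low genes such as Slc4a1 limit what can be detected.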
